A study of Mus musculus with 4 samples.

Results

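The immunoproteasome and the machinery that loads peptides onto MHC class I molecules were followed here through 10 genes, which are the catalytic subunits Psmb8, Psmb9 and Psmb10, the proteasome activators Psme1 and Psme2, the peptide transporter Tap1 and Tap2, the loading chaperone Tapbp, and the class I molecule itself, B2m and H2-K1. The members were chosen by gene symbol, so that every probe on the array carrying one of these names was taken, and the brightest probe of a gene gave its value. This yielded 13 probes of 39429, and all 10 genes had a probe that entered the test, among 22002 genes tested.

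The samples were cells derived from mammary tumors of MMTV-Neu mice, in which the mouse mammary tumor virus promoter drives the Neu (Her2) oncogene, and which were labelled either Pak1-/- (2 arrays) or Pak1+/+ (2 arrays). PAK1 is a p21-activated kinase acting downstream of Rac and Cdc42, and the comparison asked how gene expression differs between Neu-driven tumor cells with and without it. Cells of both genotypes were serum starved for 3 h and then received EGF for 15 min, so no array represents unstimulated cells. The design text states that cells from 2 tumors per genotype were used. Neither the mouse strain nor its MHC haplotype was given in the sources used here.

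Cells display short peptides from their own proteins on MHC class I molecules for inspection by CD8+ T cells. The proteasome cuts the proteins, and under interferon its constitutive catalytic subunits are exchanged for PSMB8, PSMB9 and PSMB10, forming the immunoproteasome, while PSME1 and PSME2 form the PA28 cap that opens the barrel. TAP1 and TAP2 carry the peptides into the endoplasmic reticulum, and tapasin (TAPBP) bridges TAP to the heavy chain, which is stable at the surface only with beta-2 microglobulin.

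The promoters of 4 members are printed. Psmb8, B2m and H2-K1 are the members with a motif match in the printed bases, so the choice followed the matches. The windows of Psmb9, Psmb10, Psme2 and Tapbp held no match and are not printed. The match in Psme1 lies after the start site. Regulation of such genes by interferon and NF-kappaB is textbook knowledge, and its part in these differences was not tested. Each run is the 250 bases before the start site, 5′ to 3′ on the gene's strand, from RefSeq on GRCm38.p6. Capitals mark a gamma-activated sequence (GAS, TTCNNNGAA) in Psmb8, an interferon regulatory factor core (GAAANNGAA) followed by an NF-kappaB match in B2m, and overlapping NF-kappaB matches in H2-K1. The window of Tap1 holds none of the 3 motifs and is shown because it lies head to head with Psmb9, the start sites being 225 bases apart. The windows are Psmb8 at chr17:34197945-34198194 (plus strand), Tap1 at chr17:34187306-34187555 (plus strand), B2m at chr2:122147437-122147686 (plus strand) and H2-K1 at chr17:34000348-34000597 (minus strand).
Psmb8: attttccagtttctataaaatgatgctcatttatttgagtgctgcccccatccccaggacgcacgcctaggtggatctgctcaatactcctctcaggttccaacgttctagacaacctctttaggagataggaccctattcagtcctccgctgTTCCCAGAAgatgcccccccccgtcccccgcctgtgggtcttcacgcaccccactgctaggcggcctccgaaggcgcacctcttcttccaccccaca
Tap1: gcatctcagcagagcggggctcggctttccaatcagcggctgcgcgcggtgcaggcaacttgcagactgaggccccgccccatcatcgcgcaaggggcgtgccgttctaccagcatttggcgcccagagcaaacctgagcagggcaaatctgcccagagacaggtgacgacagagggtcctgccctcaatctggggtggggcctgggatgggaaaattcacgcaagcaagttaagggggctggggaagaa
B2m: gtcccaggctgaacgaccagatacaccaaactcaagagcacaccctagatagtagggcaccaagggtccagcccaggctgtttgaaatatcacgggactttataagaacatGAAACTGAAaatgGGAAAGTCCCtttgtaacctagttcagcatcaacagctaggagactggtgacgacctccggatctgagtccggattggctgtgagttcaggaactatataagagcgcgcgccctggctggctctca
H2-K1: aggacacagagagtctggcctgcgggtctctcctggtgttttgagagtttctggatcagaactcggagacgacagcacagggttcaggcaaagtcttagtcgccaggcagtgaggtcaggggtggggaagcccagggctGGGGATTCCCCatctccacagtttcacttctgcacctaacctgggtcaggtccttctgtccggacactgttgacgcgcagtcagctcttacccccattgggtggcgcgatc

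RefSeq promoter windows of 300 bases, 250 before and 50 after the start, were matched for 9 of the 10 genes, all but Tap2, and were searched on both strands. The IRF core was present in 2 of the 9, in B2m from -139 to -131 relative to the start and in Psme1 from 11 to 19, against 8.56% of all 32851 windows. The GAS letters were present in Psmb8 alone, from -97 to -89, against 8.3% of windows. The NF-kappaB consensus was present in B2m from -126 to -117 and in H2-K1 as 2 overlapping matches between -111 and -101, against 8.46% of windows. These are letter matches, not measured binding, and a window without a match says only that these letters were not in it.

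The arrays were similar in quality. The median spot intensity was 322.2 to 331.1 on the 4 arrays, over a background of 39 to 42, and 62.2% to 70.4% of probes were well above background. The probe of Pak1, the deleted gene, gave log2 intensities of 12.21 and 12.25 for Pak1-/- and of 12.04 and 12.04 for Pak1+/+. It was thus not lower in the arrays labelled Pak1-/- (difference 0.19, SE 0.068, limma adjusted p = 0.07), and the array data did not by themselves check the genotype labels. Whether the probe lies outside the deleted part of the gene is not given in the sources used here.

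All 10 genes were higher in Pak1-/- than in Pak1+/+ cells, by 1.05 to 6.85 on the log2 scale, and none was lower. Each passed limma's test at an adjusted p under 0.05, where 22.8% of all genes tested were called higher and 28.2% lower. In all 10 the change was at least 2-fold, a size that 6.99% of all genes reached in this direction, but Psme2 fell under it in 5 alternatives (0.75 to 0.98, among them both 75th percentile scalings and leaving out array 1 of either genotype) and H2-K1 in 1 (0.99). The 2 Pak1-/- arrays lay above both Pak1+/+ arrays for all 10 genes, as they did for 34.2% of all genes. The median difference of the members was 1.93, beside -0.055 over all genes. Values throughout are background-corrected, quantile-normalized log2 intensities, each group has n = 2 with errors given as SD, and a difference is Pak1-/- minus Pak1+/+. In bulk samples such as these, more cells expressing a gene and more RNA per cell cannot be told apart.

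**Figure D1:**
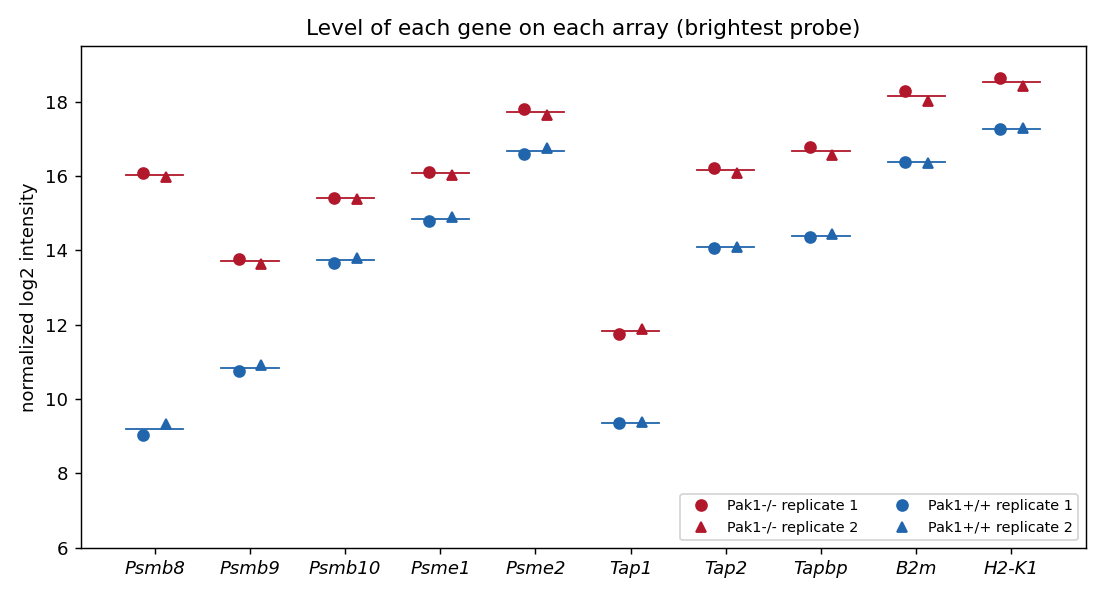
Log2 intensity of the brightest probe of each of the 10 genes (vertical axis) on the 2 Pak1-/- and 2 Pak1+/+ arrays, 1 point per array with the group means. The Pak1-/- points lie above the Pak1+/+ points for every gene, by the widest margin for Psmb8.

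Of the catalytic subunits, Psmb8 (LMP7), which replaces PSMB5 in the immunoproteasome, differed the most. Its probe at chr17:34337771-34337830 (mm9, as are all probe positions) read 16.08 and 15.98 on the Pak1-/- arrays and 9.03 and 9.34 on the Pak1+/+ arrays. The gene passed from a low to a bright signal between the groups, with raw spot intensities of 518 and 612 in Pak1+/+ and 61997 and 65228 in Pak1-/-. The difference of 6.85 (SE 0.12, 95% interval 6.52 to 7.17) equalled 115-fold, with a limma adjusted p of 4.5e-05. By size of increase Psmb8 ranked 14 among the 22002 genes.

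Psmb9 (LMP2), which takes the place of PSMB6, was next. It read 13.77 and 13.64 in Pak1-/- and 10.75 and 10.92 in Pak1+/+ (chr17:34319174-34319233), or 13.70 ± 0.093 against 10.84 ± 0.12. The groups were separated by many times their spread, with a difference of 2.87 (SE 0.096), or 7.30-fold, at a limma adjusted p of 0.00013. Psmb10 (MECL-1), the substitute for PSMB7, lies on another chromosome and gave a bright signal in both groups. It read 15.42 and 15.38 in Pak1-/- and 13.65 and 13.81 in Pak1+/+ (chr8:108459677-108459736), a difference of 1.67 (SE 0.084) or 3.18-fold with a limma adjusted p of 0.00033.

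The constitutive subunits that these 3 replace did not pass the test. Psmb5 differed by 0.13 (limma adjusted p = 0.20) and Psmb6 by 0.16 (0.11), and Psmb7 by 0.29 (0.07). The second probe of Psmb5 gave -0.23 (limma adjusted p = 0.13). Within an array, the log2 difference between Psmb8 and Psmb5 changed by 6.72 between the groups, that between Psmb9 and Psmb6 by 2.71, and that between Psmb10 and Psmb7 by 1.38. These are changes of a difference between probes and carry no test.

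The activator genes Psme1 and Psme2 encode PA28-alpha and PA28-beta, which assemble into one ring. Both were higher in Pak1-/- cells. Psme1, printed as 10 spots on each array (chr14:56200194-56200253), read 16.11 and 16.04 in Pak1-/- and 14.78 and 14.90 in Pak1+/+, a difference of 1.23 (SE 0.080) or 2.35-fold, with a limma adjusted p of 6e-04. Psme2 read 17.80 and 17.64 in Pak1-/- and 16.60 and 16.75 in Pak1+/+ with its brightest probe (chr14:56206296-56206355), a difference of 1.05 (SE 0.098) or 2.07-fold, with a limma adjusted p of 0.0015. A second Psme2 probe (chr14:56208888-56209346) gave a difference of 0.85 (SE 0.079), or 1.81-fold, with the same adjusted p. One more probe carrying the name Psme2 maps to chr11:48759630-48759689, where RefSeq lists Psme2b, a near-identical copy. It was well above background on 1 array and was not tested, and it read 7.11, 6.71, 6.38 and 6.62 on the Pak1-/- and then the Pak1+/+ arrays.

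Another activator gene, Psme3, encodes PA28-gamma, which forms a nuclear cap of its own and is not an interferon target. It was lower in Pak1-/- by 0.51 on the log2 scale (fitted difference -0.51, SE 0.090, limma adjusted p = 0.0094), the opposite direction to Psme1 and Psme2. Psme4, encoding the PA200 cap, differed by 0.43 (limma adjusted p = 0.086), and its second probe by 0.53 (0.021).

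Both transporter genes and tapasin were higher. TAP1 and TAP2 are the ABC transporter subunits that pair into one channel. Tap1 (chr17:34330854-34330913, 10 spots) read 11.75 and 11.88 in Pak1-/- and 9.35 and 9.38 in Pak1+/+. The difference was 2.46 (SE 0.080), or 5.49-fold, with a limma adjusted p of 0.00012. Tap2 (chr17:34353116-34353175) read 16.23 and 16.07 in Pak1-/- and 14.08 on both Pak1+/+ arrays, a difference of 2.07 (SE 0.083) or 4.20-fold with a limma adjusted p of 0.00019. Tapbp, the tapasin gene (chr17:34065963-34066022), read 16.78 and 16.57 in Pak1-/- and 14.35 and 14.43 in Pak1+/+, a difference of 2.28 (SE 0.10) or 4.87-fold with a limma adjusted p of 0.00024. The differences of these 3 genes spanned 2.07 to 2.46, a narrower range than that of the catalytic subunits.

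Both chains of the class I molecule itself were higher. B2m (chr2:121978401-121978460), the invariant light chain, read 18.28 and 18.03 in Pak1-/- and 16.39 and 16.36 in Pak1+/+, a difference of 1.78 (SE 0.11) or 3.44-fold with a limma adjusted p of 5e-04. H2-K1, a classical heavy chain, read 18.65 and 18.43 in Pak1-/- and 17.27 and 17.28 in Pak1+/+ with its brightest probe (chr17:34133055-34133114, 10 spots). This difference was 1.26 (SE 0.098), or 2.40-fold, with a limma adjusted p of 0.00097. The second H2-K1 probe (chr17:34133984-34134043) read 17.38 and 17.21 against 15.68 and 15.65, a difference of 1.63 (SE 0.089) with an adjusted p of 0.00039. Class I heavy chains are related in sequence, some of them closely. A probe for one may therefore also capture RNA of others, and the value of a single heavy chain is uncertain to that extent.

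**Figure D2:**
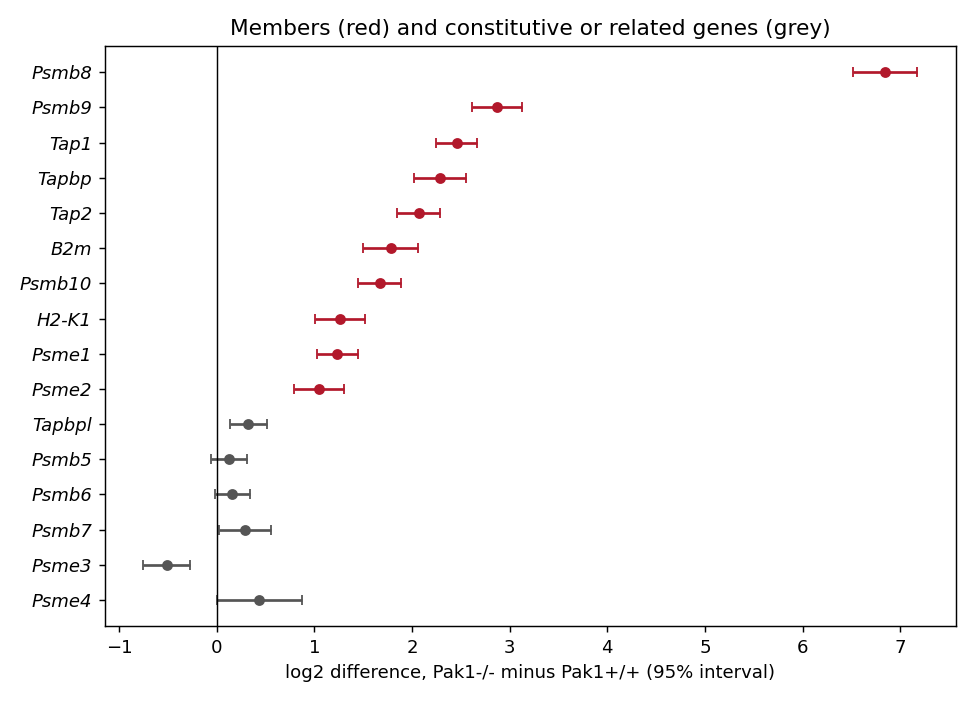
Log2 difference (Pak1-/- minus Pak1+/+) with its 95% interval from limma, for each of the 10 genes (red) and for Tapbpl, Psmb5, Psmb6, Psmb7, Psme3 and Psme4 (grey). Psmb8 at 6.85 stands clear of the other red points, whose differences run from 1.05 to 2.87.

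Ordered by their differences, the genes ran Psmb8, Psmb9, Tap1, Tapbp, Tap2, B2m, Psmb10, H2-K1, Psme1 and Psme2. Only the step from Psmb8 to Psmb9, of 3.98, separated neighbours whose 95% intervals did not overlap. Overlap of intervals is not a test of a gap. Psmb9 lay 0.41 above Tap1 (combined SE 0.13) and Psmb10 lay 0.41 above H2-K1 (0.13), more than 3 times the SE, whereas the gap of 0.028 between H2-K1 and Psme1 was below its SE of 0.13. The gaps themselves were not tested. By role, the median difference was 2.87 for the catalytic subunits, 2.28 for the transporter and tapasin genes, 1.52 for the class I molecule and 1.14 for the PA28 genes.

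The spots of the probes printed 10 times per array showed how far values of the same probe spread within an array. Their SD within an array was 0.163 to 0.190 for Psme1, 0.179 to 0.198 for Tap1 and 0.0746 to 0.118 for H2-K1 on the log2 scale. Part of this spread was a pattern shared by the arrays, so the SD is not measurement scatter alone. A Psme1 spot read 15.86 and 15.79 in Pak1-/- and 14.55 and 14.65 in Pak1+/+. Another read 16.28 and 16.21 in Pak1-/- and 14.94 and 15.07 in Pak1+/+, above the first on every array. Every Pak1-/- spot was brighter than every Pak1+/+ spot of the same gene. The gap between the lowest Pak1-/- and the highest Pak1+/+ spot was 0.67 for Psme1, 1.88 for Tap1 and 0.87 for H2-K1. Spots of one array share an RNA sample, so they describe the measurement and are not replicates of a genotype.

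**Figure D3:**
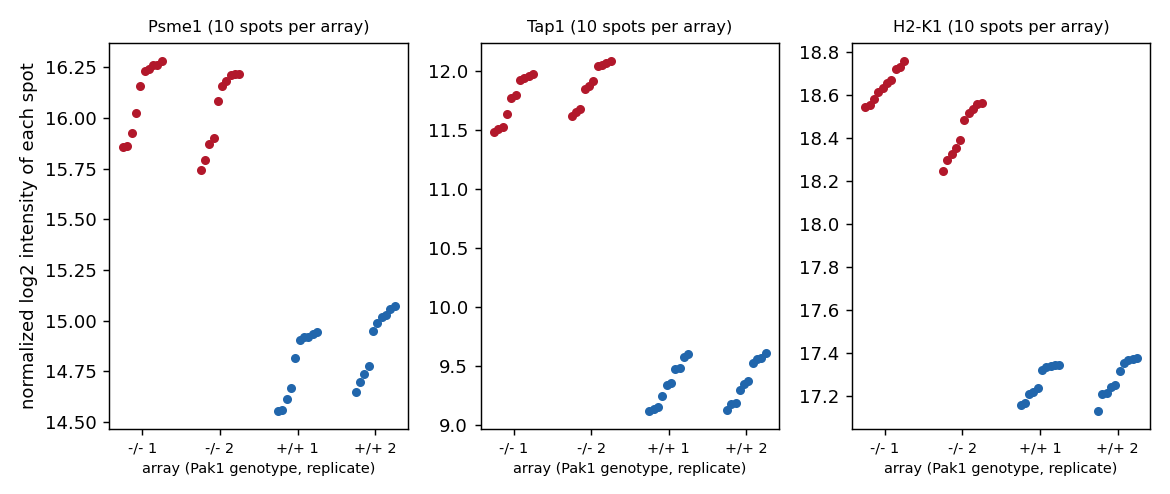
Log2 intensity of each of the 10 spots per array for the Psme1, Tap1 and H2-K1 probes, by array. The Pak1-/- spots lie wholly above the Pak1+/+ spots for each gene, with the widest gap, 1.88, for Tap1.

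Of the 10 genes, 6 lie on chromosome 17. Psmb9, Tap1, Psmb8 and Tap2 sit side by side within 34002 bases of the MHC class II region (mm9 chr17:34319174-34353175, from the first to the last probe), with no other RefSeq gene between neighbours. Their differences in that order were 2.87, 2.46, 6.85 and 2.07, so the largest difference of the set lay between genes that differed far less. The nearest tested genes with a symbol on either side of the block were H2-DMb1, a class II loading gene, at 0.95 (limma adjusted p = 0.0019), and H2-Ob at -0.13 (0.24). Within 500 kb on each side, 19 of 57 other genes tested were higher (33.3%) and 6 were lower, with a median difference of 0.065. Over the whole of chromosome 17 without the members, 21.5% of 1101 genes were higher, with a median of -0.036. The other class II genes with a symbol in that window, named after their values were seen, went both ways. H2-Oa (1.56, limma adjusted p = 0.014) and H2-Eb1 (0.39, 0.044) were higher, H2-Ab1 (-2.93, 0.00065) and H2-Eb2 (-0.57, 0.016) were lower, and H2-DMa (-0.036, 0.77) did not pass.

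**Figure D4:**
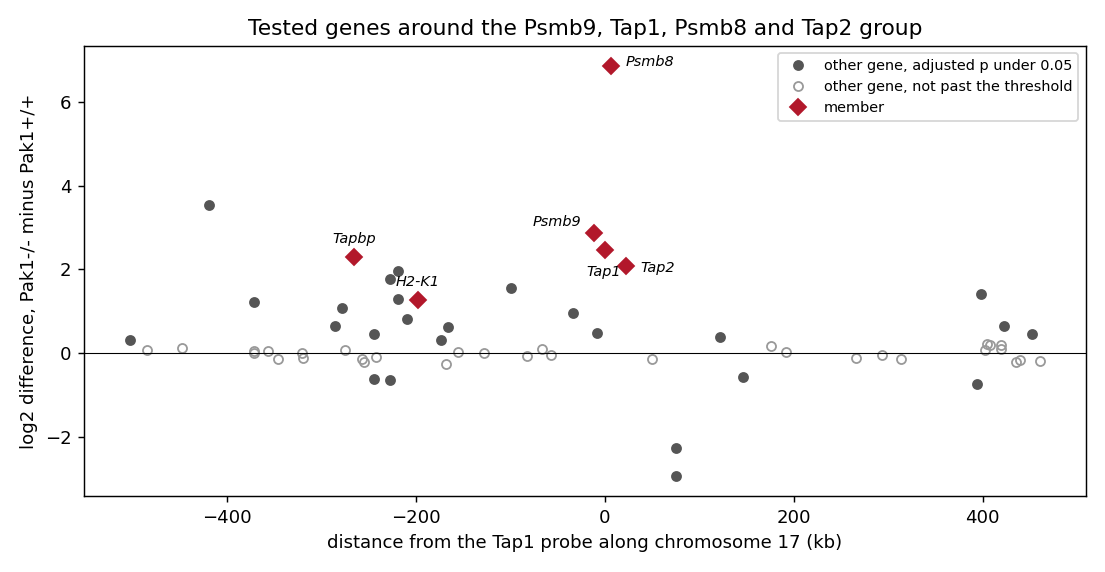
Log2 difference (Pak1-/- minus Pak1+/+) of genes tested along the chromosome 17 region, by distance from the Tap1 probe in kb, with the members as diamonds. The members stand above most of the other 57 genes within 500 kb, whose median is 0.065.

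Genes of the same pathway outside the set were taken from lists of constitutive proteasome, class I heavy chain, peptide loading and class I regulator genes. Over all genes tested, 22.8% were higher and 28.2% lower. Of the 18 constitutive proteasome genes, 4 were higher (6 with cyclic loess, 2 under scaling to the 75th percentile), 4 were lower and 10 did not pass, near those shares, with a median difference of 0.095. The higher ones were Psma5 (0.70), Psmb2 (0.50), Psmb4 (0.50) and Psma2 (0.43), and the lower ones were Psme3 (-0.51), the assembly factor Pomp (-0.50), Psma6 (-0.49) and Psma3 (-0.38). Psma2, Psma3 and Psma6 are named after their values were seen, to complete these counts.

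The other class I pathway genes went mostly with the members, with 20 of 25 tested genes higher, 1 lower and a median difference of 1.08. By the same test 22.8% of all genes were higher and 28.2% lower. The count higher in this list was 18 under both 75th percentile scalings and 17 at a limma adjusted p under 0.01. Among heavy chains 12 of 13 were higher, with a median of 1.47, led by H2-Bl (2.67), H2-Q8 (1.98), H2-T23 (1.83) and H2-Q10 (1.60). H2-T24 did not pass with its brightest probe (0.86, limma adjusted p = 0.16), whereas its other probe gave 1.48 (0.00029). The H2-Q1 and H2-T3 probes stayed near background throughout, and no probe carried the names H2-L or H2-T22. These heavy chain values share the cross-hybridization limit given for H2-K1.

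Of the 6 endoplasmic reticulum partners that assist loading, 5 were higher, with a median difference of 0.43. Erap1, the aminopeptidase that trims peptides, was higher by 1.08 (limma adjusted p = 0.00075). Uggt1 (0.56), Pdia3 (0.53), Tapbpl (0.32) and Calr (0.32), which edit, fold or hold the assembling molecule, were also higher, and Canx at 0.30 (0.065) did not pass. The change in the difference between Tapbp and its relative Tapbpl was 1.96.

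Among regulators of these genes, Nlrc5, the class I transactivator, had the largest difference in its list, where 3 of 6 genes were higher and 1 lower. Its brightest probe read 10.74 and 10.49 in Pak1-/-, and was not well above background in Pak1+/+ (6.48 and 6.52), so that it was at least 13.4-fold higher (limma adjusted p = 8.1e-05). The probe entered the test through the Pak1-/- arrays alone, so it had to differ and its p adds no support, and with probes required on all 4 arrays 19 other class I pathway genes were higher instead of 20. The bound uses, for each Pak1+/+ array, the lowest signal among probes well above background. The other Nlrc5 probe differed by 0.88 (0.0071). It was not well above background on all 4 arrays either, as Nlrc5 left the test under that filter, so the size of this difference is uncertain. Irf1, an interferon-induced activator, was higher by 1.18 (limma adjusted p = 0.0015) with its brightest probe, while its other probe gave 0.30 (0.3). Of the RFX complex that NLRC5 works with, Rfx5 was higher by 0.48, Rfxap was lower (-0.50) and Rfxank did not pass (-0.11), and nor did Irf2 (-0.18).

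**Figure D5:**
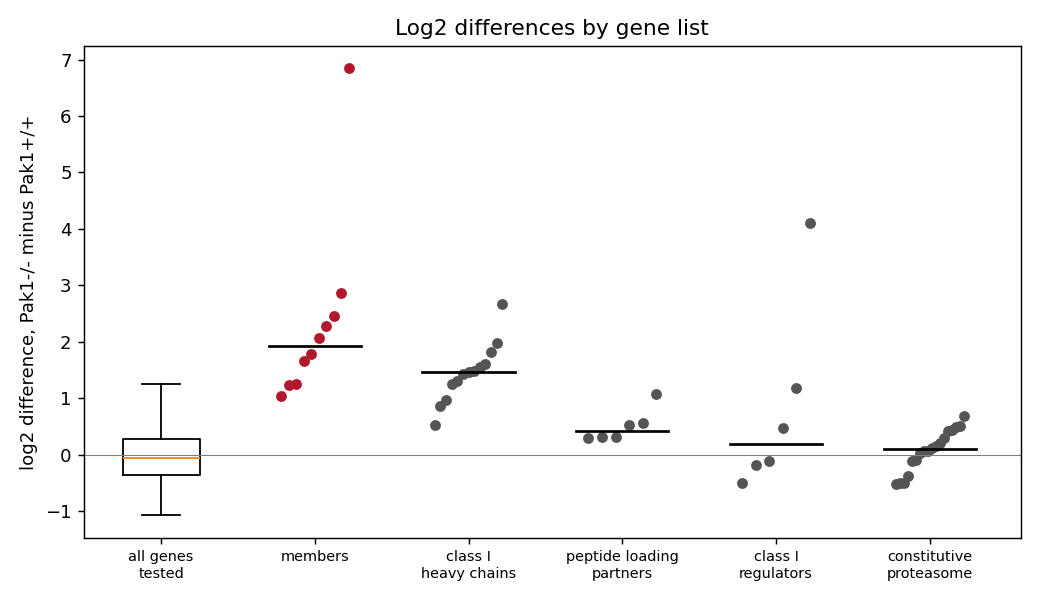
Log2 difference (Pak1-/- minus Pak1+/+) of every tested gene in the 10-gene set and in the lists of related genes, 1 point per gene with the list median as a line, beside a box for all genes tested (quartiles, with whiskers to the 5th and 95th percentiles). The set (median 1.93) and the heavy chains (1.47) lie above 0, while the constitutive proteasome (0.095) straddles it.

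Because class I genes are strongly expressed by leukocytes, and stroma could be carried into tumor-derived cultures, markers of other cell types were measured on the same arrays. Of 18 leukocyte markers, 10 were tested, none was higher in Pak1-/- and 5 were lower. On all 4 arrays 9 of the 18 were well above background, namely Cd14, Itgam, Cd3e (11.34 to 11.70), Csf1r (10.57 or more), Fcer1g (9.54 to 10.02), Coro1a (8.06 to 9.20), Adgre1 (7.47 to 8.60), Cd68 (7.64 to 8.03) and Ptprc (7.14 to 7.60). None of the 4 arrays detected Cd3g, Ms4a1, Itgax, Tyrobp, Laptm5 or Lyz2 well above background. The summed intensity of the leukocyte list was 108000 to 122900 in Pak1-/- and 201800 to 217900 in Pak1+/+, most of it from Cd14 and Itgam. Cd14 was lower in Pak1-/- (-1.70, limma adjusted p = 0.00054) while Itgam differed by 0.49 (0.11), and without Cd14 the sum turned, at 54030 to 76670 in Pak1-/- and 45710 to 50470 in Pak1+/+. The part of these markers in the members' differences was not tested. Fibroblast markers summed to 1670 to 1862 in Pak1-/- and 1308 to 1914 in Pak1+/+, with Col3a1, Dcn, Lum and Pdgfrb likewise undetected above background and Col1a1 alone higher among the 4 tested. Endothelial markers summed to 9921 to 10300 in Pak1-/- and 8989 to 10800 in Pak1+/+, with 0 of 3 tested genes past the threshold by their brightest probes and Tek likewise undetected. A second probe of Kdr was higher by 1.37 (SE 0.079, limma adjusted p = 0.00045), where the brightest gave 0.043. Of 8 epithelial markers, 5 were higher and 1 lower in Pak1-/-. Epcam read 15.01 to 15.33 and Krt18 read 18.57 to 18.88, while Krt5 read 8.26 to 8.99 and Krt19 was well above background on 3 arrays. Krt14, a basal keratin, was higher by 2.83, or 7.12-fold (limma adjusted p = 7.5e-05), a size close to that of Psmb9. Cdh1, the E-cadherin gene, was higher by 1.19 (limma adjusted p = 0.0012), Krt8 by 0.57, Krt5 by 0.50 and Krt18 by 0.27, and the luminal keratin Krt7 was lower (-1.10, 0.00055). The part of these 6 changes in the members' differences was not tested.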

How the data were processed

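Total RNA was labelled with Cy3 and hybridized to one-color Agilent 60-mer arrays, 2 per genotype. Per the file headers and the submitters' processing notes, the authors extracted spot intensity with Agilent Feature Extraction 9.5. The deposited intensity values of the scanner files (mean signal and background) were used, and the deposited log2 table of the authors served as an alternative. In R 4.3.3, limma 3.58.1 corrected background (normexp, offset 50) on all spots. Control spots were then dropped, and log2 values of the remaining 43020 spots were quantile normalized. Outlier spots were set aside and spots of a probe averaged. The 27215 probes that rose clearly over background on 2 or more arrays were fitted with lmFit and eBayes by genotype alone, two-sided, with Benjamini-Hochberg adjustment over all of them (residual df 2, prior df 2.63). The test was run on simulated data first.

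Named were all 10 members with every probe, Pak1, Psmb5, Psmb6, Psmb7, Psme3, Psme4, all loading partners and regulators, and the 4 largest changes past the threshold in the heavy chain and the remaining proteasome lists. Members and lists were chosen with earlier results of these data known. Names were matched to RefSeq (GRCm38.p6) by accession for 26055 probes; probe positions are mm9. Arrays are labelled cells #1 and #2 per genotype, and which tumor each came from is not given, so p-values measure the spread between these samples. With 2 per group, an exact permutation cannot go below p = 0.333. The Pak1-/- arrays and the Pak1+/+ arrays took different positions on one slide, so position and genotype cannot be told apart. Alternatives were other offsets (0 and 16), 75th percentile scaling, cyclic loess, other filters, the authors' table, probe averaging, kept outlier spots, a replicate block, stricter and unadjusted thresholds, and leaving out each array. The number of arrays limits the precision.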

Additional observations from a re-analysis of the deposited data

How the results depend on the processing

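The 10 members kept their direction and stayed past the threshold under the alternatives that refit all 4 arrays. They also did so when 1 array was left out, where the lone array is assumed to vary like the other group and the largest adjusted p was 0.013 (Psme2, without Pak1-/- array 1). The other thresholds reuse the same fit and say nothing of direction. Size was less stable: Psme2 fell under 2-fold in 5 alternatives, at 0.75 and 0.78 with the processed and normexp signals scaled to the 75th percentile, 0.95 as the mean of its probes, and 0.97 and 0.98 without array 1 of Pak1-/- and of Pak1+/+, and H2-K1 in 1, at 0.99 with the processed signal, while Psmb8 stayed at 6.69 or above. The members' median was 1.79 with the processed signal and 1.80 with normexp values at that percentile, against 1.93, and 1.82 to 2.03 when 1 array was left out. Under both scalings 2 constitutive proteasome genes were higher instead of 4, and under cyclic loess 6. With no filter on dim probes 27 other class I genes were tested instead of 25, of which 2 were lower instead of 1 and 19 higher instead of 20. The genes this added, H2-Q1 and H2-T3, stayed near background on all 4 arrays. Requiring 2-fold left 0 constitutive genes higher and 0 lower, and 13 other class I genes higher instead of 20 and 0 lower. With the replicate number as a replicate block 10 members were higher; the labels do not tie the numbers across genotypes and replicate differences correlated at -0.028 across probes. The causes of these shifts were not tested. With 2 arrays per group, probes near background carry only bounds.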

Other observations

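Psme1 and Psme2 lie near each other on chromosome 14, and 3 genes beside them were read after their values were seen. Emc9, between them, was lower in Pak1-/- (-0.30, limma adjusted p = 0.043). Rnf31, a subunit of the linear ubiquitin ligase complex, was higher by 1.17 (limma adjusted p = 0.0012), and Irf9, the DNA-binding subunit of the interferon-stimulated gene factor ISGF3, was higher by 2.82 (0.00023), more than either PA28 gene. Fitm1 was also looked up and gave no tested value.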
